A study of Homo sapiens with 4 samples.

Results

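Integrins are the receptors through which epithelial cells hold on to the matrix beneath them, and 10 integrin subunit genes of epithelial cells are described here in migratory and non-migratory HCT116 cells. The genes were taken from the known integrin repertoire of epithelium and grouped by ligand. ITGA3, ITGA6 and ITGB4 form laminin receptors, ITGA2 a collagen receptor, and ITGA5, ITGAV, ITGB5, ITGB6 and ITGB8 belong to receptors for ligands with an Arg-Gly-Asp (RGD) motif. ITGB1 is the beta subunit shared by several of these receptors. By RefSeq accession, 11 probes were found for the 10 genes, 2 of them for ITGA6, among 21611 genes with a symbol on the array. Of these, 8 integrin genes were above background by the scanner's flag (well above background, in the terms of the scanner software) on each of the 4 arrays, as were 12751 genes in all, and ITGA2 and ITGB6 were well above background on none.

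An integrin is a pair of an alpha and a beta chain, and both chains are needed for the receptor to reach the cell surface. Outside the cell the pair binds laminin, collagen or RGD proteins such as fibronectin, and inside the cell its tails recruit talin, kindlins, focal adhesion kinase and Src family kinases. The pair of ITGA6 and ITGB4 instead anchors keratin filaments at hemidesmosomes, and the pairs of ITGAV with ITGB6 or ITGB8 are known for activating latent TGF-beta.

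HCT116 is a line established from a human colorectal carcinoma. The study selected from it, by repeated passage through a porous membrane, cells that crossed (MG cells) and cells that stayed behind (non-MG cells), and asked which genes differed between them and which responded to loss of DNA methylation. Both came from the same parental line, and both were given 5 µM 5-azacytidine, which blocks DNA methyltransferases, or vehicle, over 48 h. RNA of each of the 4 conditions (non-MG cells with vehicle, non-MG cells with 5-azacytidine, MG cells with vehicle, MG cells with 5-azacytidine) was hybridized to 1 one-colour array, 400 ng per array. No condition has a replicate, so no difference between conditions could be tested, and a ratio past 1.5-fold (0.585 on the log2 scale) is a description of these arrays.

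The arrays were of like brightness, with a 75th percentile of intensity between 75.2 and 98.7 and between 42.3% and 43.2% of probes well above background. No spot was saturated. All arrays shared 1 slide and 1 scan, with non-MG cells in slide row 1, MG cells in row 2, vehicle in column 3 and 5-azacytidine in column 4, so neither cell type nor treatment can be told apart from slide position. Of 10 markers of colonic epithelium, 9 passed the mark on all 4 arrays, and VIL1, which encodes villin, was so on none. In MG cells with vehicle 3 of the 9 were lower than in non-MG cells past 1.5-fold and 0 higher. Of all genes 7.55% were lower and 5.99% higher. The 3 were ELF3 (log2 ratio -1.09), CLDN4 (-0.73) and CDH1 (-0.66), the gene of E-cadherin. With 5-azacytidine their ratios between the cell types were -0.96, -0.90 and -0.49. Centring arrays on their median rather than their 75th percentile raises every ratio between the vehicle arrays by 0.20. Of the 3, ELF3 alone then stays past 1.5-fold. The study reported CDH1 mRNA as unchanged between the cell types, also by qPCR. KRT20, a keratin of differentiated colon cells, was higher with 5-azacytidine than with vehicle, by 1.42 in non-MG and 1.85 in MG cells. It was dim with vehicle, with log2 levels of -2.57 in non-MG and -2.34 in MG cells. The spot errors of these ratios (explained below) were 0.35 and 0.22. The part of these epithelial genes in the integrin values was not tested. The defining markers PTPRC and CD3E of leukocytes, PECAM1 and CDH5 of endothelium and 6 of 8 fibroblast markers were well above background on 0 of 4 arrays. COL1A1, the fibroblast marker measured on all 4 arrays, had log2 levels of 0.12 and -0.0041 in non-MG cells with vehicle and 5-azacytidine and of -0.80 and -0.56 in MG cells, and its part in the integrin values was not tested.

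The DNA next to the start sites is shown for 3 members, since 5-azacytidine acts through cytosine methylation, which mammalian cells place mostly at CpG dinucleotides. ITGB8 was the member with the widest range over the arrays, while ITGB6 and ITGA2 stayed below that mark on every array, those with 5-azacytidine included. The sequences are the 250 bases before the RefSeq start in build GRCh38.p14, in the direction of the gene, with each CpG in capitals. The window of ITGB8 is chr7:20330650-20330899 on the plus strand, that of ITGB6 chr2:160200273-160200522 on the minus strand and that of ITGA2 chr5:52989102-52989351 on the plus strand.
ITGB8: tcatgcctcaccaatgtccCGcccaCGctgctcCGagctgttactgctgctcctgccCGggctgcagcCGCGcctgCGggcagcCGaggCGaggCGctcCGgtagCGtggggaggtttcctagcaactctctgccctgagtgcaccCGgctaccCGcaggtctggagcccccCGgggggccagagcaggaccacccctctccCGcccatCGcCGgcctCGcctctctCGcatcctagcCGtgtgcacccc
ITGB6: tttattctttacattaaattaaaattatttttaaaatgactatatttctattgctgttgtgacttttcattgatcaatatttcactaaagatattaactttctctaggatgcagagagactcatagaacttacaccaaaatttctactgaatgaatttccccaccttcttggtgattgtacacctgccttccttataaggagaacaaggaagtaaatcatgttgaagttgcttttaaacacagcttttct
ITGA2: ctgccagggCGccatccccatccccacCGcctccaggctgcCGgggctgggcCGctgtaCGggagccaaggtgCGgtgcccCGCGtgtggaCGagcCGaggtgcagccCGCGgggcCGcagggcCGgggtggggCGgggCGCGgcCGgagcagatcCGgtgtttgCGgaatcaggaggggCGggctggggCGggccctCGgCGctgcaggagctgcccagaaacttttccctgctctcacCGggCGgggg
The window of ITGB8 held 21 CpG, that of ITGA2 26 and that of ITGB6 0. Over all 35116 promoter windows of the same length the median was 11, with quartiles of 3 and 23. A window had as few CpG as ITGB6 or fewer in 6.06% of cases, as ITGB8 or fewer in 72.0% and as ITGA2 or fewer in 82.3%. The 2 members without a signal above background thus lay on opposite sides of the median CpG content. Windows were also held for ITGA5, ITGA6, ITGAV, ITGB1 and ITGB5, but not for ITGA3 and ITGB4. These counts are of letters only, and methylation was not measured on these arrays.

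ITGA3, the alpha chain that pairs with ITGB1 to bind the laminins of epithelial basement membrane, was lower in MG than in non-MG cells. Its intensity was 1402 in non-MG cells with vehicle, 989 in non-MG cells with 5-azacytidine, 955 in MG cells with vehicle and 811 in MG cells with 5-azacytidine. Below, values of the 4 arrays are given in this order. After subtraction of each array's 75th percentile the log2 levels were 4.01, 3.72, 3.27 and 3.07, so both non-MG arrays lay above both MG arrays. With vehicle the level was 1.66-fold lower in MG than in non-MG cells, which is written below as an MG/non-MG ratio below 0 (log2 ratio -0.74, spot error 0.08), and with 5-azacytidine it was 1.57-fold lower (-0.65, spot error 0.08). Spot error is the standard deviation of a ratio expected from spotting and scanning, taken from probes printed 10 times on each array, and it covers neither culture nor labelling. Of all 12751 genes, 4.27% had a lower ratio than ITGA3 with vehicle and 4.46% with 5-azacytidine. When arrays were centred on their median instead, the ratios were -0.54 and -0.39, short of 1.5-fold, and with normexp background correction (which fits the background and adds an offset) that with vehicle was -0.56.

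ITGA6, the laminin-binding alpha chain that pairs with ITGB4 or ITGB1, was measured by 2 probes, which gave intensities of 524, 461, 693 and 748 and of 267, 269.5, 353 and 354. Averaged, the log2 levels were 2.10, 2.23, 2.33 and 2.42, with both MG arrays above both non-MG arrays. The MG/non-MG ratio was 0.22 with vehicle and 0.19 with 5-azacytidine, each with a spot error of 0.06. With vehicle the probes gave nearly the same ratio, 0.22 each. With 5-azacytidine they gave 0.34 and 0.04, with spot errors of 0.09, so there the probes differed by more than their spot errors.

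ITGB4, the beta chain whose long tail binds plectin at hemidesmosomes, had intensities of 6026, 4349.5, 5928 and 5665. Its log2 levels were 6.11, 5.85, 5.91 and 5.88, so that the first array, non-MG cells with vehicle, stood above the other 3, which lay within 0.07 spot error of each other. The MG/non-MG ratio was -0.20 (spot error 0.07) with vehicle and 0.02 with 5-azacytidine. ITGA3 and ITGB4, both on chromosome 17, thus did not share a pattern over the 4 arrays.

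ITGB1, the shared beta chain, had intensities of 317, 240.1, 331 and 316 and log2 levels of 1.87, 1.68, 1.75 and 1.71. Its probe is printed 10 times, so its own spots give the error. The means over spots were 1.87 ± 0.05 (SD, n = 10 spots), 1.68 ± 0.09 (n = 10), 1.75 ± 0.10 (n = 10) and 1.71 ± 0.04 (n = 9). The spots of non-MG cells with vehicle, from 1.80 to 1.94, lay above all spots of both 5-azacytidine arrays, from 1.53 to 1.79 in non-MG and from 1.66 to 1.77 in MG cells, and overlapped with those of MG cells with vehicle, from 1.53 to 1.83. This order of spots depends on the centring. The 5-azacytidine ratio of ITGB1 in non-MG cells was -0.19 here, -0.12 with the percentile over detected probes and -0.29 with median centring. Spots of 1 array share its RNA and labelling and are not replicates of a condition. The MG/non-MG ratio was -0.12 (spot error 0.03) with vehicle and 0.04 with 5-azacytidine, and with median centring that with vehicle turned to 0.08.

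**Figure D1:**
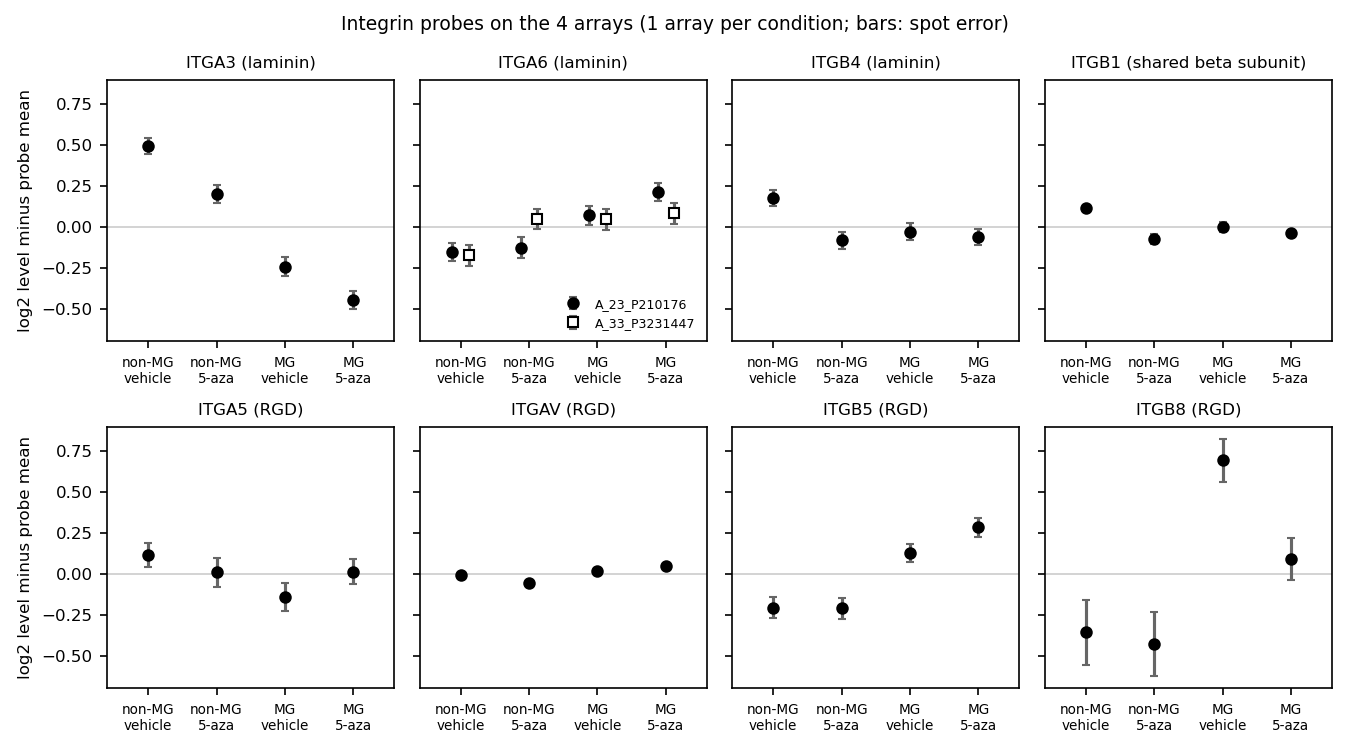
Each panel plots an integrin gene, with the 4 arrays on the horizontal axis and, on the vertical axis, the log2 level minus the mean of its probe over the arrays. Points are single arrays, bars are spot error, and ITGA6 has a symbol for each of its 2 probes. ITGA3 is highest in non-MG cells with vehicle (log2 level 4.01) and lowest in MG cells with 5-azacytidine (3.07), and ITGB8 is highest in MG cells with vehicle (-0.74).

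Among the RGD receptors, ITGB8 was the member with the largest difference between MG and non-MG cells. ITGB8 pairs with ITGAV alone, and the pair binds the RGD site of latent TGF-beta. It was also the dimmest member above background, with intensities of 25.2, 20.7, 59.0 and 38.0, where the lowest intensity well above background was between 9.95 and 11.8. The log2 levels were -1.79, -1.86, -0.74 and -1.34, so both MG arrays lay above both non-MG arrays. With vehicle the level was 2.07-fold higher in MG cells (log2 ratio 1.05, spot error 0.24), a ratio exceeded by 0.737% of all genes. With 5-azacytidine it was 1.43-fold higher (0.52, spot error 0.24). With normexp background correction, whose offset of 50 is near or above these intensities, the ratios were 0.39 and 0.11.

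ITGB5, the beta chain with which ITGAV binds vitronectin, had intensities of 418, 359.8, 597 and 650.4. The log2 levels were 2.26, 2.26, 2.60 and 2.75, with both MG arrays above both non-MG arrays. The MG level was 1.26-fold higher with vehicle (log2 ratio 0.33, spot error 0.09) and 1.41-fold higher with 5-azacytidine (0.49, spot error 0.09), both short of 1.5-fold. With median centring the ratio with 5-azacytidine was 0.75.

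ITGAV, the alpha chain common to the receptors with ITGB5, ITGB6 and ITGB8, varied least. Its intensities were 666, 557, 768 and 766, and its log2 levels were 2.94, 2.89, 2.96 and 2.99. Over the spots of its probe the means were 2.94 ± 0.07 (SD, n = 10), 2.89 ± 0.03 (n = 9), 2.96 ± 0.06 (n = 10) and 2.99 ± 0.06 (n = 10). The spots of non-MG cells with 5-azacytidine reached from 2.83 to 2.92 and those of MG cells with 5-azacytidine from 2.91 to 3.10, so that even the lowest and the highest array overlapped. The MG/non-MG ratio was 0.02 (spot error 0.03) with vehicle and 0.10 (spot error 0.02) with 5-azacytidine. With median centring these ratios were 0.22 and 0.36, so the overlap of spots depends on the centring. ITGAV and ITGB8 thus differed in how far they varied, with ranges of 0.10 and 1.12 on the log2 scale.

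**Figure D2:**
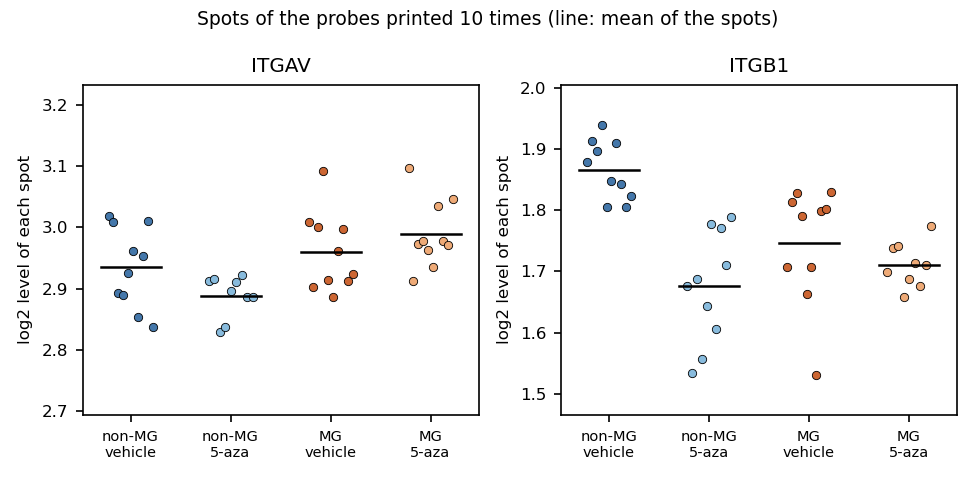
Each point is 1 spot of the ITGAV or ITGB1 probe, with the 4 arrays on the horizontal axis, the log2 level of the spot on the vertical axis and a line at the mean of the 9 or 10 spots. With the centring used here, spots of the 4 arrays overlap for ITGAV, and for ITGB1 the spots of non-MG cells with vehicle lie above those of both 5-azacytidine arrays. Other centrings shift the arrays against each other and can change this.

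ITGA5, which with ITGB1 forms the main fibronectin receptor, had intensities of 131, 105, 124 and 135. Its log2 levels were 0.58, 0.48, 0.33 and 0.49. The MG/non-MG ratio was -0.25 (spot error 0.11) with vehicle and 0.0047 with 5-azacytidine, and the arrays of MG and non-MG cells interleaved.

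ITGA2, which with ITGB1 forms the collagen receptor of epithelium, had intensities of 3.85, 6.16, 4.28 and 4.06, all below the lowest intensity well above background. ITGB6, the epithelial partner of ITGAV, had intensities of 8.75, 2.86, 2.76 and 5.61, likewise below. Neither was well above background under any condition, and no ratio is given for them.

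Between the vehicle arrays, ITGB8 was the 1 member of 8 higher past 1.5-fold, where 5.99% of all genes were, and ITGA3 the 1 member lower, where 7.55% were. With 5-azacytidine, 0 of 8 members were higher (6.12% of all genes) and ITGA3 was the 1 lower (5.94%). The median ratio of the 8 members was -0.05 with vehicle and 0.07 with 5-azacytidine, against 0.0147 and 0.05 over all genes. With vehicle 4 members had a ratio above 0 and 4 below, and with 5-azacytidine 7 and 1. With quantile normalization or the percentile over detected probes, 4 of 8 were above 0 in both. Median centring raised the median ratio of all genes by 0.20 with vehicle and by 0.26 with 5-azacytidine. It changed the split of all genes past 1.5-fold to 14.7% higher and 3.50% lower with vehicle and to 20.8% and 2.02% with 5-azacytidine.

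The ratios of 5-azacytidine over vehicle spanned a narrower range among the members than the MG/non-MG ratios with vehicle, from -0.29 to 0.12 in non-MG and from -0.60 to 0.16 in MG cells against -0.74 to 1.05. In non-MG cells 0 of 8 members were past 1.5-fold in either direction, where 1.78% of all genes were higher and 1.44% lower, and 7 of 8 ratios were below 0. This split depends on the scaling, since 1 of 8 ratios was above 0 here and with median centring, 3 with quantile normalization or normexp and 4 with the percentile over detected probes. ITGA3 had the lowest, -0.29 (spot error 0.08), followed by ITGB4 at -0.26 (spot error 0.07) and ITGB1 at -0.19 (spot error 0.03). ITGA5, ITGB8, ITGAV and ITGB5 had -0.10, -0.07, -0.05 and -0.0053, and ITGA6 had 0.12 (spot error 0.06). The median of the members was -0.09, against -0.05 over all genes.

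In MG cells the ITGB8 level was 1.52-fold lower with 5-azacytidine than with vehicle (log2 ratio -0.60, spot error 0.18), with intensities of 38.0 and 59.0. This was the 1 member past 1.5-fold among 8, where 1.61% of all genes were lower, and 1.42% had a ratio below that of ITGB8. With normexp background correction the ratio was -0.27. The probe of ITGB8 has 1 spot per array. Its ratio between the vehicle arrays and its 5-azacytidine ratio in MG cells both rest on the reading of 59.0, as does the difference of responses below. These are not independent results. Higher past 1.5-fold were 0 members, where 2.93% of all genes were. ITGA3 had -0.20 (spot error 0.08), and the other 6 lay between -0.04 for ITGB1 and 0.16 for ITGB5.

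**Figure D3:**
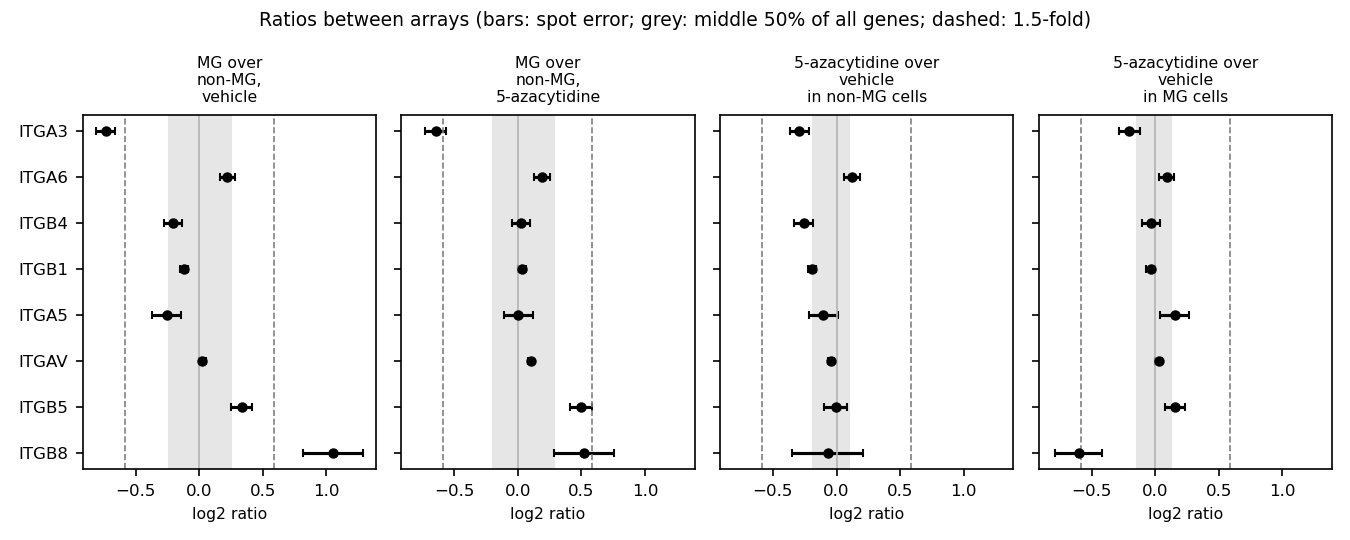
The 4 panels plot the log2 ratio of each measured integrin (horizontal axis) in the 4 comparisons between arrays. Bars are spot error, the grey band holds the middle 50% of all genes and dashed lines mark 1.5-fold. ITGA3 at -0.74 and ITGB8 at 1.05 lie past the lines between the vehicle arrays, and ITGB8 at -0.60 in MG cells under 5-azacytidine.

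The response of ITGB8 to 5-azacytidine was -0.60 in MG and -0.07 in non-MG cells, a difference of -0.53 with a spot error of 0.33, and 2.45% of all genes had a difference below it. The difference was 0.26 (spot error 0.16) for ITGA5, 0.23 (0.10) for ITGB4 and 0.15 (0.05) for ITGB1, and lay between -0.03 and 0.16 for the other members. With 1 array per condition these differences could not be tested.

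Since the chains of a receptor are needed in pairs, the change of each alpha chain was set against that of its beta chain. This difference does not depend on how arrays are centred, though it can change with background correction. For ITGA3 with ITGB1 the MG/non-MG ratio of the alpha chain minus that of the beta chain was -0.62 (spot error 0.08) with vehicle and -0.68 (0.09) with 5-azacytidine. For ITGA6 with ITGB4 it was 0.43 (0.09) and 0.17 (0.09), and for ITGA6 with ITGB1 0.34 (0.07) and 0.15 (0.07). Thus ITGA3 was lower in MG cells relative to its partner while ITGA6, which shares that partner, was higher. With 5-azacytidine the ITGA6 part rests on 1 probe, since its 2 probes had MG/non-MG ratios of 0.34 and 0.04, against 0.04 for ITGB1. For ITGAV with ITGB8 the difference was -1.02 (0.24) and -0.42 (0.24), and for ITGAV with ITGB5 -0.31 (0.09) and -0.39 (0.09), both beta chains being higher relative to ITGAV. For ITGB8 this held only in part with normexp background correction. There the MG/non-MG ratios of ITGAV and ITGB8 were 0.09 and 0.39 with vehicle, but 0.23 and 0.11 with 5-azacytidine, the reverse order. ITGA5 with ITGB1 gave -0.14 (0.12) and -0.03 (0.12), within or near spot error. For 5-azacytidine over vehicle, ITGAV with ITGB8 gave 0.63 (0.19) in MG cells and 0.02 (0.28) in non-MG cells.

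**Figure D4:**
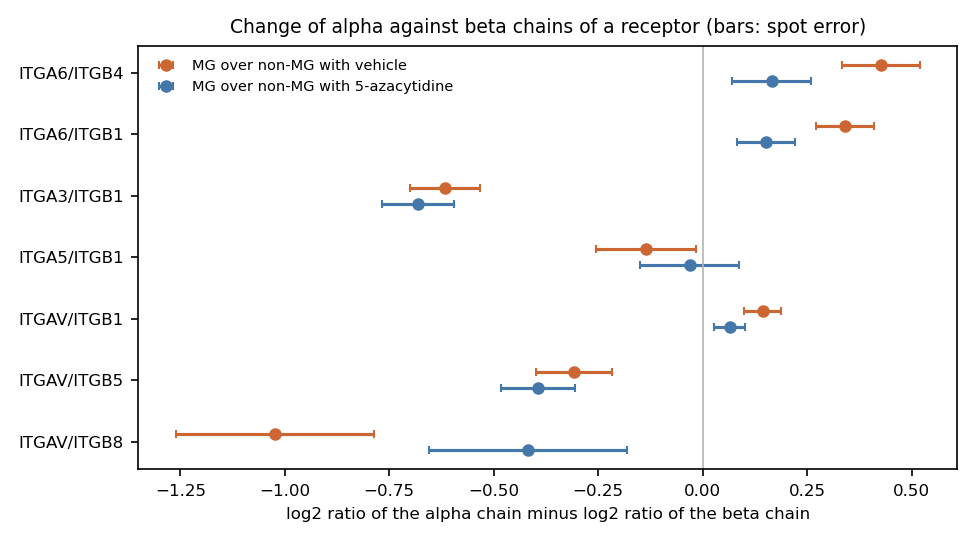
For the 7 receptor pairs on the vertical axis, the horizontal axis gives the MG/non-MG log2 ratio of the alpha chain minus that of the beta chain. Colours separate vehicle from 5-azacytidine and bars are spot error. The pair of ITGA3 and ITGB1 lies at -0.62 and -0.68, and that of ITGAV and ITGB8 at -1.02 and -0.42.

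Of the other 16 integrin subunits, 4 passed the background mark on all 4 arrays, 1 on some and 11 on none, the latter including ITGB2 of leukocytes and ITGB3 of platelets. ITGAE, which pairs with ITGB7 and binds E-cadherin, had log2 levels of 2.18, 2.16, 2.81 and 2.57. It was higher in MG cells by 0.62 (spot error 0.09) with vehicle and 0.41 (0.09) with 5-azacytidine. ITGB7 had levels of -1.45, -1.10, -1.48 and -0.85, so it was higher with 5-azacytidine, by 0.34 (0.24) in non-MG and 0.63 (0.18) in MG cells. ITGA7, a laminin-binding alpha chain, had 3.66, 3.47, 3.16 and 3.23, and its MG/non-MG ratio with vehicle was -0.50. ITGA10, a collagen-binding alpha chain, had ratios between 0.04 and 0.39 in the 4 comparisons.

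The genes around the integrins were followed in 7 lists of ligands, partners, adaptors, kinases and trafficking genes with 91 genes, of which 66 were measured on all 4 arrays, the 4 other integrin subunits among them. Between the vehicle arrays 4 of the 66 were higher in MG cells past 1.5-fold and 6 lower, 6.06% and 9.09%, close to the shares of all genes given above. Their median ratio was -0.15, against 0.0147 over all genes. Median centring moved both alike, to 0.05 and 0.21, with 7 of the 66 higher and 1 lower. Between the 5-azacytidine arrays 3 were higher and 1 lower in MG cells, or 4.55% and 1.52% against 6.12% and 5.94% of all genes, with a median of -0.0013 against 0.05. Median centring gave 14 higher and 0 lower and a median of 0.26, where 20.8% and 2.02% of all genes were and their median was 0.31. For 5-azacytidine over vehicle in non-MG cells 0 of the 66 were past 1.5-fold, where 1.78% of all genes were higher and 1.44% lower. That count was 3 lower with median centring (CRKL, LAMA5 and LAMC1), 2 higher with the percentile over detected probes (LIMS2 and SRC) and 1 higher with quantile normalization (SRC). In MG cells 4 of the 66 were higher (LAMA3, DAG1, COL4A2 and ITGB7) and 0 lower, 6.06% and 0%, where 2.93% and 1.61% of all genes were. With normexp background correction these 4 were 0.

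Ligands of the laminin receptors came from 13 genes of basement membrane, 9 of them measured. LAMB3, a chain of the main epithelial laminin and ligand of the receptors with ITGA3 and ITGB4, had log2 levels of 3.63, 3.42, 2.79 and 3.16. Its MG/non-MG ratio was -0.83 (spot error 0.08) with vehicle and -0.26 (0.08) with 5-azacytidine. LAMB2 (-0.76) and LAMA4 (-0.70, spot error 0.38) were also lower past 1.5-fold with vehicle, and LAMA4 was so dim that its spot error was large. With normexp background correction LAMB3 and LAMB2 remained past 1.5-fold and LAMA4 did not, and with median centring LAMB3 alone did. LAMA3, another chain of the same laminin as LAMB3, had levels of -0.50, -0.47, -0.35 and 0.30. It was higher in MG cells with 5-azacytidine, by 0.77 (0.16) over non-MG cells and by 0.65 over MG cells with vehicle. With normexp background correction LAMA3 was within 1.5-fold in both of these comparisons. COL4A2, a collagen of basement membrane chosen here after its values were seen, was higher by 0.64 in MG cells under 5-azacytidine. Of the 9 measured genes 8 had a ratio above 0 in that comparison (6 with normexp background correction, 7 with median centring), with a median of 0.28 against -0.01 over all genes. In non-MG cells 4 of the 9 had a 5-azacytidine ratio above 0, with a median of -0.20 against -0.05 over all genes. With normexp background correction 3 of the 9 were above 0, and their median of -0.03 was not below the -0.05 of all genes. With median centring 1 was above 0, with a median of -0.30 against -0.15. Quantile normalization and the percentile over detected probes both gave 4 above 0 and a median of -0.13, against -0.01 and 0.03. In non-MG cells LAMA5 and LAMC1, laminin chains named here after their values were seen, had 5-azacytidine ratios of -0.52 (spot error 0.11) and -0.49 (0.10). The difference between the cell types in this list was not tested.

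Of 10 RGD ligands 5 were measured, and 0 were past 1.5-fold in any of the 4 comparisons. The share of all genes was between 1.44% and 7.55%, depending on comparison and direction, so 0 of 5 says little about the ligands. TGFB1, whose latent form is a ligand of the receptors with ITGB6 and ITGB8, had levels of 0.76, 0.54, 0.29 and 0.50, with an MG/non-MG ratio of -0.47 (spot error 0.03) with vehicle. CCN2, a matricellular ligand, had 5-azacytidine ratios of 0.47 (0.38) in non-MG and 0.41 (0.28) in MG cells. SPP1, which encodes osteopontin, had an MG/non-MG ratio of -0.33 both with vehicle and with 5-azacytidine. NPNT had ratios between -0.25 and -0.17. FN1, the fibronectin gene, was well above background on 0 of 4 arrays.

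Among 6 hemidesmosome and laminin receptor partners 4 were measured. DAG1, the laminin-binding dystroglycan, had levels of 2.11, 1.94, 1.46 and 2.11, so the array of MG cells with vehicle stood below the other 3. Its MG/non-MG ratio with vehicle was -0.65 (spot error 0.09), and its 5-azacytidine ratio in MG cells was 0.65. With normexp background correction and with median centring the ratio between the cell types was within 1.5-fold. PLEC, the plectin that binds ITGB4, had an MG/non-MG ratio of -0.38 (0.15) with vehicle. CD151, a tetraspanin bound to laminin receptors, had levels from 7.14 to 7.31, and DST, the second hemidesmosomal plakin, had ratios between -0.37 and 0.25. The MG/non-MG ratios of its 4 probes with 5-azacytidine ranged from -0.31 to 1.23, so DST is uncertain.

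Of 24 integrin activators and adaptors 23 were measured. TNS4, a tensin found at focal adhesions and bound to integrin beta tails, had levels of 3.37, 3.53, 4.36 and 4.55. It was higher in MG cells by 0.99 (spot error 0.08) with vehicle and 1.01 (0.08) with 5-azacytidine, and it passed 1.5-fold in both with normexp background correction and with median centring too. PARVA, a parvin of the complex with integrin-linked kinase, had -0.06, -0.05, 0.70 and 0.82 and was higher by 0.77 (0.11) and 0.87 (0.11). Both adaptors lay higher on both MG arrays than on both non-MG arrays, though with normexp background correction PARVA with vehicle was within 1.5-fold. LIMS2, of the same complex, responded to 5-azacytidine by 0.53 in non-MG and 0.54 in MG cells, short of 1.5-fold. TNS1 had 0.52 in MG cells under 5-azacytidine.

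Of 14 signalling genes 13 were measured. SRC had levels of 0.05, 0.62, 0.67 and 0.98, higher by 0.62 (spot error 0.04) in MG cells with vehicle and by 0.58 in non-MG cells under 5-azacytidine. FYN, another kinase of the Src family, went the other way between the cell types, with levels of 1.44, 1.47, 0.80 and 0.73 and ratios of -0.64 (0.10) with vehicle and -0.74 (0.10) with 5-azacytidine. CRKL, an adaptor at focal adhesions, had MG/non-MG ratios of -0.59 (0.12) with vehicle and -0.07 with 5-azacytidine. GIT1, a scaffold of the paxillin complex, had -0.53 with vehicle, from 2 probes with -0.90 and -0.16. With normexp background correction SRC, FYN and CRKL were within 1.5-fold, and with median centring FYN and CRKL were. For 5-azacytidine over vehicle 0 of the 13 signalling genes were past 1.5-fold in either cell type. Of all genes 1.78% were higher and 1.44% lower in non-MG cells, and 2.93% and 1.61% in MG cells, so this count says little. Under other scalings SRC or CRKL passed in non-MG cells, as given above.

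The 8 genes of integrin inactivation and traffic were all measured, and 0 were past 1.5-fold in any comparison. Between 1.44% and 7.55% of all genes were, depending on comparison and direction, so 0 of 8 says little. Median centring put ARF6 past 1.5-fold higher in MG than in non-MG cells with vehicle. It put both ARF6 and ITGB1BP1 there with 5-azacytidine. The MG/non-MG ratios with vehicle of the named genes were 0.49 for ARF6, 0.37 for ITGB1BP1, -0.39 for RAB25 and 0.23 for SNX17. ARF6 recycles integrins to the membrane, ITGB1BP1 competes with talin for the ITGB1 tail and RAB25 is an epithelial recycling GTPase.

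**Figure D5:**
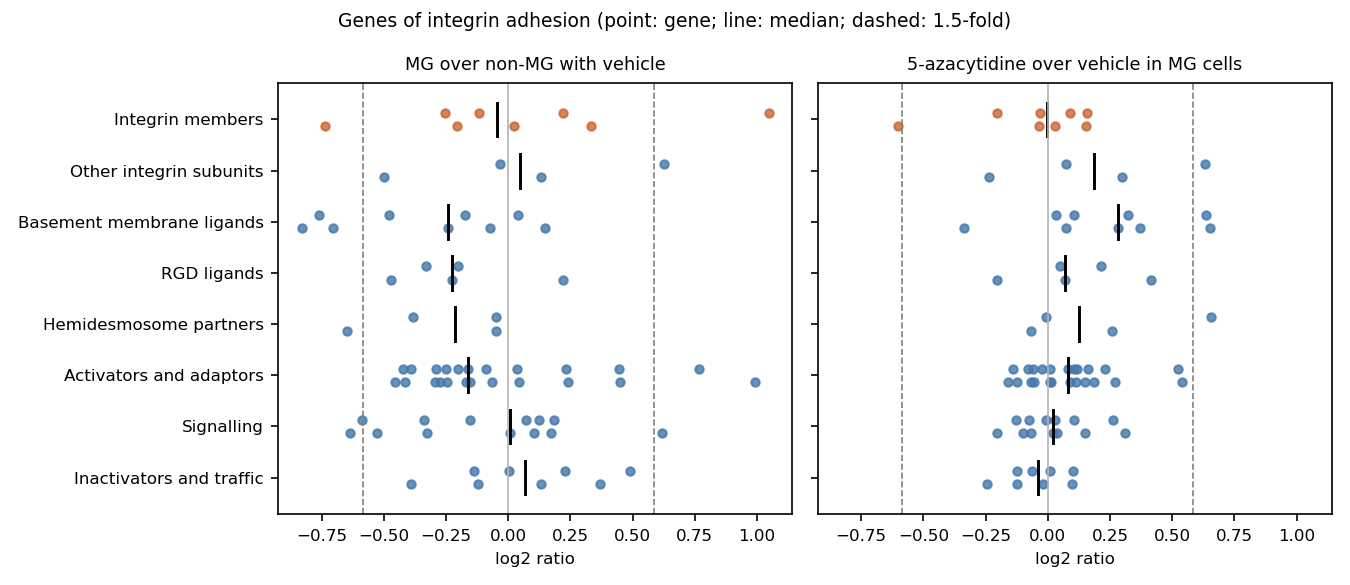
Each point is a gene, the vertical axis gives the list and the horizontal axis the log2 ratio, MG/non-MG with vehicle (left) and of 5-azacytidine over vehicle in MG cells (right). Lines are medians and dashed lines mark 1.5-fold. Basement membrane ligands have a median of -0.24 on the left and 0.28 on the right. The 2 panels share the array of MG cells with vehicle, as numerator on the left and denominator on the right. An error of that array would move them in opposite directions, so they are not independent.

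The genes nearest in pattern to the 3 members with the widest ranges were sought among 12751 genes, by the largest difference between centred log2 levels over the 4 arrays. For ITGB8 these were GNE (0.09), H2AC4 (0.10) and H3C2 (0.10). For ITGA3 they were PPP2R3B (0.02), FRRS1 (0.03) and OCEL1 (0.03), and for ITGB5 NSFL1C (0.0020), ZGPAT (0.01) and ANKRD39 (0.01). This is a description over 4 arrays, with no test.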

How the data were processed

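RNA of the 4 conditions was labelled with 1 dye and hybridized to Agilent SurePrint G3 human arrays, 1 per condition. The labels name RNAiso Plus and the methods an RNeasy kit for the extraction. The authors deposited, for each array, the spot output of Agilent Feature Extraction 11.5.1.1 as linear intensity, corrected for background and not normalized between arrays. A second file that the authors deposited holds GeneSpring log2 values, each probe set to a median of 0 over the arrays. Compared between arrays, these matched the log2 intensity up to 1 constant per comparison, within 0.01 for 100% of 24161 probes. Which percentile set that constant is not given in the sources used here.

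Control spots were dropped, as were spots with an outlier flag, which cost 5 of 50599 probes. The 75th percentile of log2 intensity over non-control probes was subtracted on each array. Spots of a probe, then probes of a gene, were averaged. Probes were named through RefSeq accessions, and 30000 (59.3%) had a symbol. The array design refers to hg19 and the promoter windows to GRCh38.p14, so no gene coordinates are given. Genes not well above background on all 4 arrays got no ratio. Spot error is the median SD between spots of probes printed 10 times at like intensity, or the error of the probe's own spots.

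The members and gene lists were chosen with earlier results of these data known. In each list the up to 4 genes with the largest ratio in any comparison are named, and COL4A2, LAMA5 and LAMC1 were added after their values were seen. With 1 array per condition no test was made. The alternatives were normexp (offset 50, on median spot intensity), quantile normalization, median centring, the percentile over detected probes, no filter, raising signals to the detection limit, taking a gene's brightest probe, the authors' log2 table, and thresholds of 2-fold and 1.4-fold. The tools were limma 3.58.1 in R 4.3.3, and pandas 2.3.3, numpy 2.4.6 and matplotlib 3.10.9 in Python 3.11.15.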

Additional observations from a re-analysis of the deposited data

How the results depend on the processing

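The 2 members past 1.5-fold between the cell types with vehicle were 0 with normexp, 1 (ITGB8) with median centring and 1 at 2-fold. The 1 member with 5-azacytidine was 2 with quantile normalization (ITGB8 joined ITGA3), 2 with median centring (ITGB5 and ITGB8 in place of ITGA3), 3 without the filter on dim probes, 3 at 1.4-fold and 0 at 2-fold. The 0 members under 5-azacytidine in non-MG cells were 2 without that filter. The 1 member in MG cells was 0 with normexp, 2 without the filter and 0 at 2-fold. Members added without the filter were ITGA2 or ITGB6, which are not well above background. Counts under the other alternatives stayed within 1.5 times. Of 256 single ratios of the 8 members over 8 alternatives, 198 moved by less than their spot error, 8 changed their side of 1.5-fold and 16 changed sign, none of these past 1.5-fold. Many of the 256 could hardly move. Dropping the filter or raising dim signals leaves these members as they are, the authors' table holds the same data, and the brightest probe matters for ITGA6 alone. Out of 32 ratios each, 9 moved by less than spot error with median centring and 16 with normexp. That number was 23 with the percentile over detected probes and 24 with quantile normalization. The ratio of ITGB8 with vehicle ran from 0.39 to 1.24 and that of ITGA3 from -0.78 to -0.54. The causes were not tested. An added offset shrinks ratios by construction, and that of normexp exceeds most ITGB8 intensities, but no other offset was run. The alternatives for the differences between 5-azacytidine responses and for the lists were chosen after seeing the data, and the ITGB8 difference ran from -0.60 to -0.28.

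No paired analysis was possible because each condition has 1 array, and leaving out a replicate was not possible for the same reason. The slide was not used as a block, since there is 1 slide. Spot error leaves out differences between cultures, extractions and labellings. Dim probes such as ITGB8 are limited by signal over background, and what a probe cannot show is a protein level or a surface receptor.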
